A study of Homo sapiens with 6 samples.

Results

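The NRF2 and glutathione system was followed through 10 of its genes in HaCaT, a human keratinocyte line that grows without limit, after an siRNA against PSENEN or a mismatch siRNA. The genes were chosen by name, as GCLC, GCLM, SLC7A11, GSR, TXNRD1, SRXN1, NQO1, HMOX1, NFE2L2 and KEAP1, which are 10 of the 27079 gene names in the files. They and the lists of other pathway genes below were chosen with earlier results of these data known. Their counts beside those of all genes are therefore descriptions, not independent support. PSENEN encodes a small subunit of γ-secretase, a membrane protease that cleaves Notch receptors, and the study asked what its loss does to γ-secretase, cell behaviour and signalling in keratinocytes. The 3 PSENEN siRNA libraries came from cells given 100 pmol of siRNA with a lipid reagent, and the 3 mismatch siRNA libraries are the negative controls. The labels give all cells the same medium, high in glucose with added serum, and no other treatment. RNA extraction is given at 48 and 72 h, without saying which time was sequenced. HaCaT is a single established line, the labels do not say that the libraries of a group came from separate cultures, and a group that received reagent alone is not analysed here.

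Glutathione is the main small thiol of the cell. Its first and rate-limiting step is carried out by glutamate-cysteine ligase, made of the catalytic subunit GCLC and the modifier subunit GCLM, and cystine for it enters through SLC7A11. NRF2, encoded by NFE2L2, is a transcription factor that KEAP1 holds in the cytoplasm for degradation and releases under oxidative or electrophilic stress. NRF2 then binds antioxidant response elements with small MAF proteins, and the other 8 genes followed here are widely used as its targets, in epidermis as in other tissues.

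The short core of the antioxidant response element, TGACNNNGC, was looked for in the RefSeq promoters of the 10 genes on both strands, because it is the DNA sequence this pathway is read through. The RefSeq table on GRCh38.p14 holds 250 bases before to 50 after each start. It has promoters for 7 of the 10 genes, and lacks SLC7A11, GSR and HMOX1. The core was found in 4 of the 10 promoters of those 7 genes, which belong to GCLM, TXNRD1 and KEAP1, against 13.3% of all 35116 promoters and 14.9% of the 12478 promoters of tested genes. There are 6 matches, of which 4 are printed 5′ to 3′ on the strand that reads the core, with the core in capitals, and the other 2 lie close to a printed one, in TXNRD1 and KEAP1.
GCLM, chr1:93909446-93909474, opposite to the gene's strand, core centred 30 bases before the start: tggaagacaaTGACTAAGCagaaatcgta
TXNRD1, chr12:104215670-104215698, same strand, 95 bases before the first of its starts: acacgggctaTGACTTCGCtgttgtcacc
TXNRD1, chr12:104286920-104286948, opposite strand, 98 bases before a start inside the gene: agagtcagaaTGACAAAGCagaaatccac
KEAP1, chr19:10502784-10502812, opposite strand, 27 bases before a start, inside the first exon of ENST00000393623: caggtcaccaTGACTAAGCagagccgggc
GCLM and KEAP1 carry the same 9 letters, TGACTAAGC. A match is a description of the letters, not a bound site. GCLC, NQO1, SRXN1 and NFE2L2 have no match in this window, from which nothing follows about NRF2.

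The files list TPM, a level corrected for transcript length and scaled to the library, for each transcript of each library, and the level of a gene was the sum over the lines that carry its name. Library depth was estimated from coverage and FPKM. It was 11.9, 11.3 and 9.16 gigabases in PSENEN siRNA libraries 1 to 3 and 15.6, 13.7 and 11.5 in mismatch siRNA libraries. The assemblies held 167955 to 181298 transcripts with the PSENEN siRNA and 185198 to 193153 with the mismatch siRNA, without overlap. The part of this imbalance in the results below was not tested. The targeted gene, PSENEN, had 1.75, 2.08 and 1.50 TPM with its siRNA (libraries 1 to 3), against 6.58, 8.85 and 6.55 TPM with the mismatch siRNA, so the groups did not overlap. All 12 keratinocyte markers averaged at least 1 TPM, with summed levels of 3897 to 4671 TPM in PSENEN siRNA libraries and 4162 to 8748 TPM in mismatch siRNA libraries. Those sums include KRT14, whose named TPM were 675, 3913 and 146 in mismatch siRNA libraries 1 to 3, and the cause was not tested. Of the 12 markers, 6 were lower in every PSENEN siRNA library than in any mismatch siRNA library, against 13.8% of all genes. They were KRT5, KRT17, KRT6A, TP63, SFN and DSG3, with TP63, for example, at 56.9 to 61.3 against 76.8 to 82.0 TPM. Their part in the results below was not tested. Of the markers of other cells, 0 of 7 for fibroblasts, 0 of 5 for melanocytes and 0 of 4 for endothelium averaged at least 1 TPM. No line in any file carries the name of 4, 3 and 2 of them, which were counted as 0. Their sums were 0.460 to 1.01 against 1.18 to 1.47 TPM for fibroblasts, 0.229 to 0.531 against 0 to 0.545 for melanocytes and 0 to 0.324 against 0.162 to 0.230 for endothelium. Of immune cell markers, PTPRC, CD3E and LYZ have no line in any file either, and CD14 was at 0.877 to 1.65 against 1.04 to 1.67 TPM. RNA was measured in bulk, so a lower level in each cell and fewer cells with the RNA cannot be told apart.

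Of the 10 genes, 1 passed the test across all genes. GCLC was higher with the PSENEN siRNA (limma, Benjamini-Hochberg adjusted p under 0.05). Of all 15415 genes tested, 0.422% were called, 0.136% higher and 0.285% lower, and 0 of the 10 were called lower. At an unadjusted p under 0.05 GCLC and GCLM passed, where 13.2% of genes did. Groups did not overlap for 4 genes, GCLC on the higher side and GCLM, GSR and NFE2L2 on the lower side, against 22% of all genes. The median log2 difference over the 10 was −0.14, beside −0.04 over all genes tested.

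**Figure D1:**
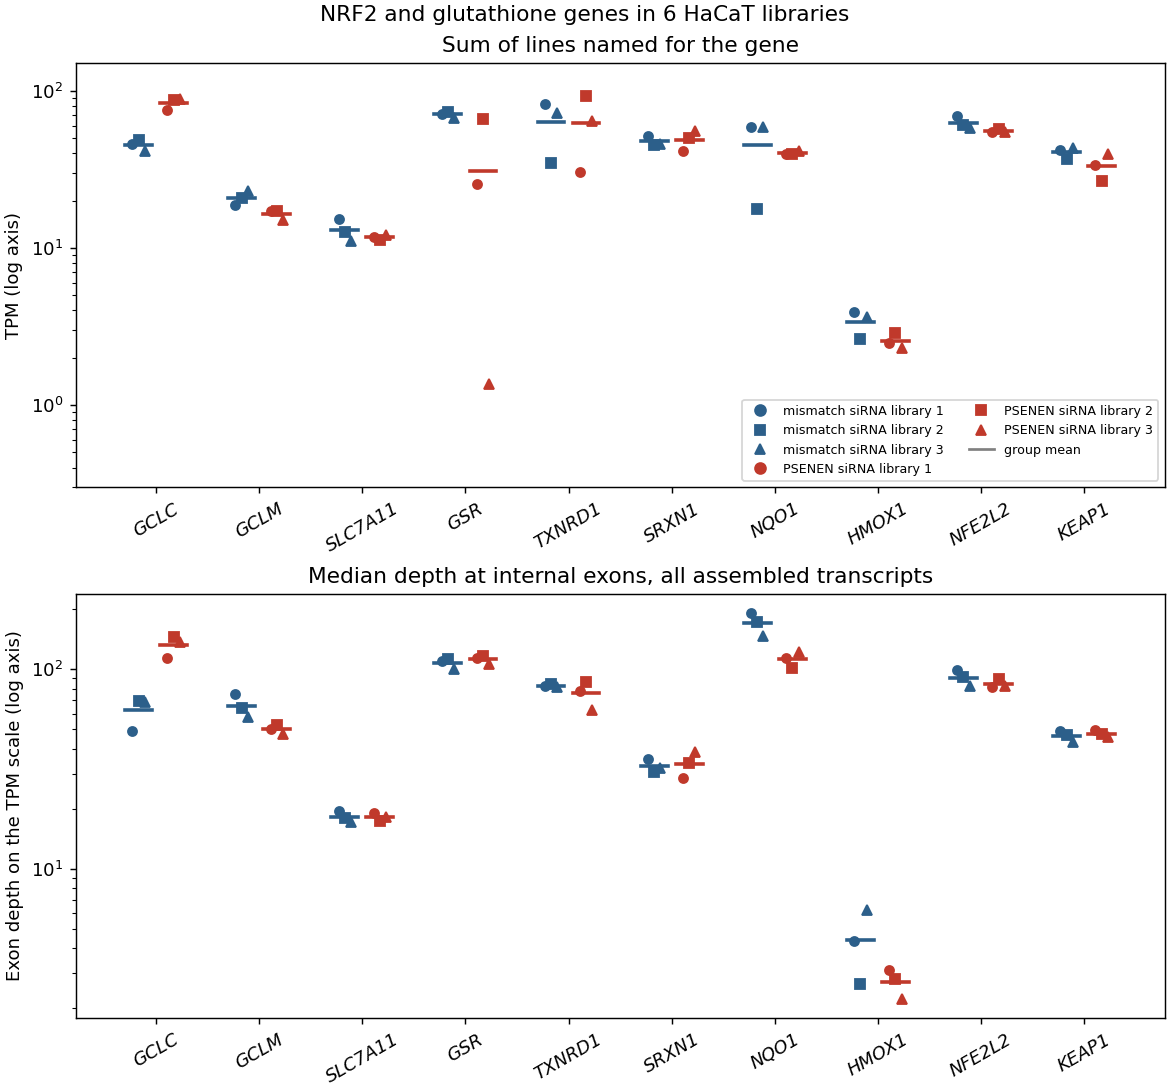
Level of each of the 10 genes in each library, as the TPM sum of named lines (upper panel) and as median depth at internal exons (lower panel), both on log axes, with blue for mismatch siRNA, red for PSENEN siRNA, 1 symbol per library and a bar at the group mean. GCLC is the gene whose PSENEN siRNA libraries lie above all mismatch siRNA libraries in both panels. The upper panel's scatter of GSR with the PSENEN siRNA, NQO1 with the mismatch siRNA and TXNRD1 in both groups is smaller in the lower panel. The scatter of NQO1 with the PSENEN siRNA is larger there.

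Because StringTie assembles each library by itself, some of a gene's signal can sit on assembled transcripts that carry no gene name. A second measure was therefore added after the data were seen. It is the median depth over the internal exons of the gene's most abundant protein-coding transcript (all exons where there is none internal), summed over every assembled transcript on that strand and put on the TPM scale of the library. By this exon depth 1.37% of 10951 genes were called. Again 1 of the 10 genes was called higher (GCLC, against 0.329% of genes) and 0 lower (against 1.04%), and groups did not overlap for 3 genes, GCLC, GCLM and NQO1, against 25.6% of genes. At an unadjusted p under 0.05 those 3 genes passed, where 17.8% of genes did. The median over the 10 was −0.05, beside −0.08 over all genes. With unnamed transcripts added to named TPM where they share an intron with 1 gene, GCLC was again the 1 gene called (against 0.522% of 15915 genes), and groups did not overlap for 1 gene on the higher side (against 7.84%) and 4 on the lower (GCLM, GSR, NQO1 and HMOX1, against 14.7%).

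GCLC (ENSG00000001084, 6:53497341-53616970, minus strand, GRCh38), the catalytic subunit of glutamate-cysteine ligase, rose. Its named TPM were 75.8, 87.5 and 89.2 in PSENEN siRNA libraries 1 to 3 and 45.8, 48.8 and 41.4 in mismatch siRNA libraries 1 to 3. Every PSENEN siRNA library was above every mismatch siRNA library, with means of 84.2 ± 7.30 and 45.3 ± 3.72 TPM (SD, n = 3), a ratio of 1.86. The log2 difference was 0.88 (95% interval 0.60 to 1.15, limma adjusted p = 0.049). Exon depth gave 114, 145 and 137 against 49.1, 69.4 and 68.5, a ratio of 2.12 and a log2 difference of 1.08 (0.69 to 1.47, limma adjusted p = 0.038).

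The call on GCLC stood close to the threshold. It was lost with any single library left out, at adjusted p of 0.123 to 0.193 on named TPM and 0.0630 to 0.124 on exon depth. On named TPM it was also lost at pseudocounts of 0.1 (0.064) and 5 (0.053), with no filter (0.064), at a minimum of 5 TPM (0.0505), with named lines rescaled to a common total (0.062) and without an intensity trend (0.080). With the replicate number fitted as a block it was lost too, at limma adjusted p of 0.343 on named TPM and 0.088 on exon depth. The log2 difference was 0.81 to 0.97 over the settings run on TPM and 0.92 to 1.18 over those run on exon depth.

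Exon by exon, the higher level of GCLC ran along the whole transcript. All 16 exons of ENST00000229416 had higher depth in every PSENEN siRNA library than in any mismatch siRNA library. In exons 2 to 5 the mean depth was 121, 164 and 135 in PSENEN siRNA libraries and 90.5, 84.3 and 75.9 in mismatch siRNA libraries, a ratio of 1.67. In exons 11 to 15 it was 124, 131 and 131 against 51.7, 69.7 and 63.8, a ratio of 2.09. Between them, the assemblies of 2 mismatch siRNA libraries had gaps, mismatch siRNA library 1 at under 5 in exons 7 to 10 and mismatch siRNA library 2 at under 1 in exons 7 and 8, and the ratio over exons 6 to 10 was 3.65. Over the 10 internal exons with a depth of at least 5 in every library the ratio was 1.92, and the groups still did not overlap.

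**Figure D2:**
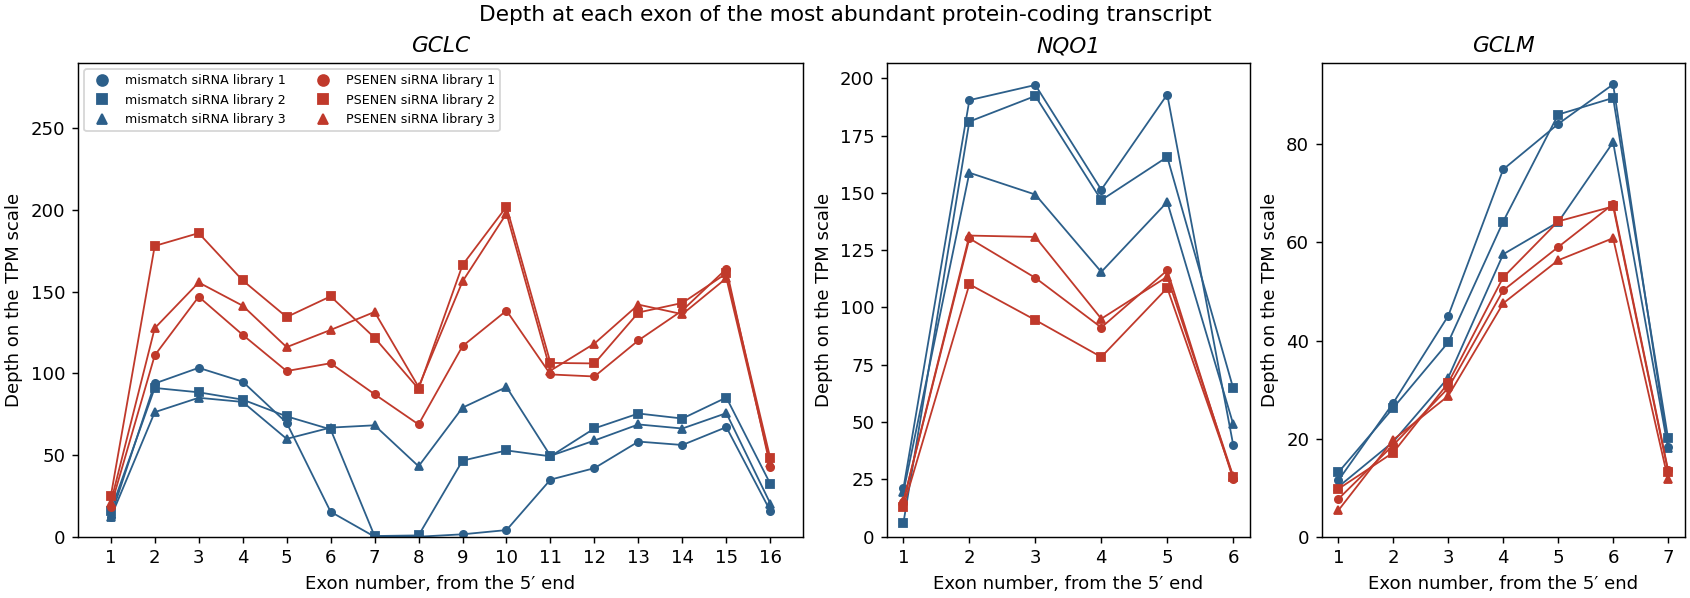
Depth on the TPM scale (y axis) at each exon of the most abundant protein-coding transcript of GCLC, NQO1 and GCLM, numbered from the 5′ end (x axis), with 1 line per library, red for PSENEN siRNA and blue for mismatch siRNA. The red lines of GCLC lie above the blue at all 16 exons, with blue gaps at exons 7 to 10, while the red lines of NQO1 and GCLM lie below the blue at 5 of 6 and 5 of 7 exons.

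Among the 12 GCLC transcripts named in the files, ENST00000229416, the one with the highest mean, was listed at 60.3, 82.8 and 68.5 TPM with the PSENEN siRNA and 0.0586, 30.5 and 37.9 TPM with the mismatch siRNA. In mismatch siRNA library 1 the sum was carried by ENST00000514004 at 29.9 TPM and ENST00000616923 at 13.6 TPM, in the library whose assembly had the longer gap. The split between GCLC transcripts thus varied within the mismatch group by more than their sum did.

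GCLM (ENSG00000023909, 1:93885205-93909456, minus strand), the modifier subunit that improves the ligase's kinetics, was not higher with the PSENEN siRNA. Its named TPM were 17.2, 17.2 and 15.0 with the PSENEN siRNA and 18.7, 20.8 and 22.9 with the mismatch siRNA. The groups did not overlap, with every PSENEN siRNA library lower, but the log2 difference of −0.32 did not pass (−0.63 to −0.01, limma adjusted p = 0.366). Exon depth was 50.2, 52.9 and 47.6 against 74.9, 64.3 and 57.6, a ratio of 0.766, and did not pass either (adjusted p = 0.188).

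The GCLC to GCLM ratio of named TPM was 4.39, 5.08 and 5.95 with the PSENEN siRNA and 2.45, 2.34 and 1.81 with the mismatch siRNA. Its means were 5.14 ± 0.778 and 2.20 ± 0.344 (SD, n = 3), 2.34-fold apart, with no overlap (exact two-sided permutation p = 0.1, the smallest that 3 against 3 libraries allow). By exon depth the ratio was 2.63 ± 0.321 against 0.974 ± 0.282, 2.70-fold apart. The catalytic subunit's RNA was thus near that of the modifier subunit in the mismatch siRNA libraries by exon depth, and above it in every PSENEN siRNA library.

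SLC7A11 (ENSG00000151012, 4:138164097-138242349, minus strand), the cystine-glutamate antiporter that supplies cysteine for glutathione, was at 11.8, 11.2 and 12.0 TPM with the PSENEN siRNA and 15.3, 12.6 and 11.0 TPM with the mismatch siRNA. The groups overlapped. Its log2 difference was −0.13 on named TPM (−0.49 to 0.24, adjusted p = 0.750) and 0.01 by exon depth (−0.28 to 0.29, adjusted p = 0.983).

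GSR (ENSG00000104687, chromosome 8), the reductase that returns oxidised glutathione to its reduced form, shows how much the naming of transcripts matters. Its named TPM were 25.7, 65.9 and 1.36 with the PSENEN siRNA and 71.1, 73.8 and 67.0 with the mismatch siRNA. PSENEN siRNA libraries 1 and 3 were far below the rest, and the log2 difference was −2.15 (−4.97 to 0.67, limma adjusted p = 0.487). In PSENEN siRNA library 1 a further 40.2 TPM lay on unnamed transcripts that share an intron with GSR alone, and in PSENEN siRNA library 3 a 20-exon unnamed transcript at 36.2 TPM joined introns of GSR and of its neighbour GTF2E2. Exon depth, which counts those transcripts, was 114, 116 and 106 against 110, 112 and 101. The groups overlapped at all 13 exons, with a log2 difference of 0.06 (−0.17 to 0.29, adjusted p = 0.790).

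TXNRD1 (ENSG00000198431, 12:104215779-104350305, plus strand), the cytosolic reductase of thioredoxin, was at 30.5, 92.6 and 63.8 TPM with the PSENEN siRNA and 81.8, 34.9 and 72.3 TPM with the mismatch siRNA. Libraries of both groups were high and low, and the log2 difference was −0.06 (−1.24 to 1.12, adjusted p = 0.967). Unnamed transcripts that share an intron with it held 72.8, 42.6 and 0 TPM against 6.38, 28.3 and 28.0 TPM. Exon depth was more even, at 78.0, 86.8 and 62.7 against 82.0, 84.7 and 81.4, with a log2 difference of −0.14 (−0.45 to 0.18, adjusted p = 0.632). Its leading named transcript was ENST00000503506 in all mismatch siRNA libraries and in PSENEN siRNA library 3, while other transcripts led in PSENEN siRNA libraries 1 and 2. ENST00000503506 ranged from 0 to 36.8 TPM in PSENEN siRNA libraries and from 32.4 to 63.0 TPM in mismatch siRNA libraries, and ENST00000526950 reached 38.4 TPM in PSENEN siRNA library 2 while listed at 0 in the other 2 of that group.

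SRXN1 (ENSG00000271303, 20:646615-653370, minus strand), which repairs over-oxidised peroxiredoxins, was at 41.2, 50.1 and 55.1 TPM with the PSENEN siRNA and 51.6, 45.5 and 46.0 TPM with the mismatch siRNA. Those groups overlapped. The log2 difference was 0.02 on named TPM (−0.31 to 0.35, adjusted p = 0.955) and 0.03 by exon depth (−0.30 to 0.36, adjusted p = 0.937).

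**Figure D3:**
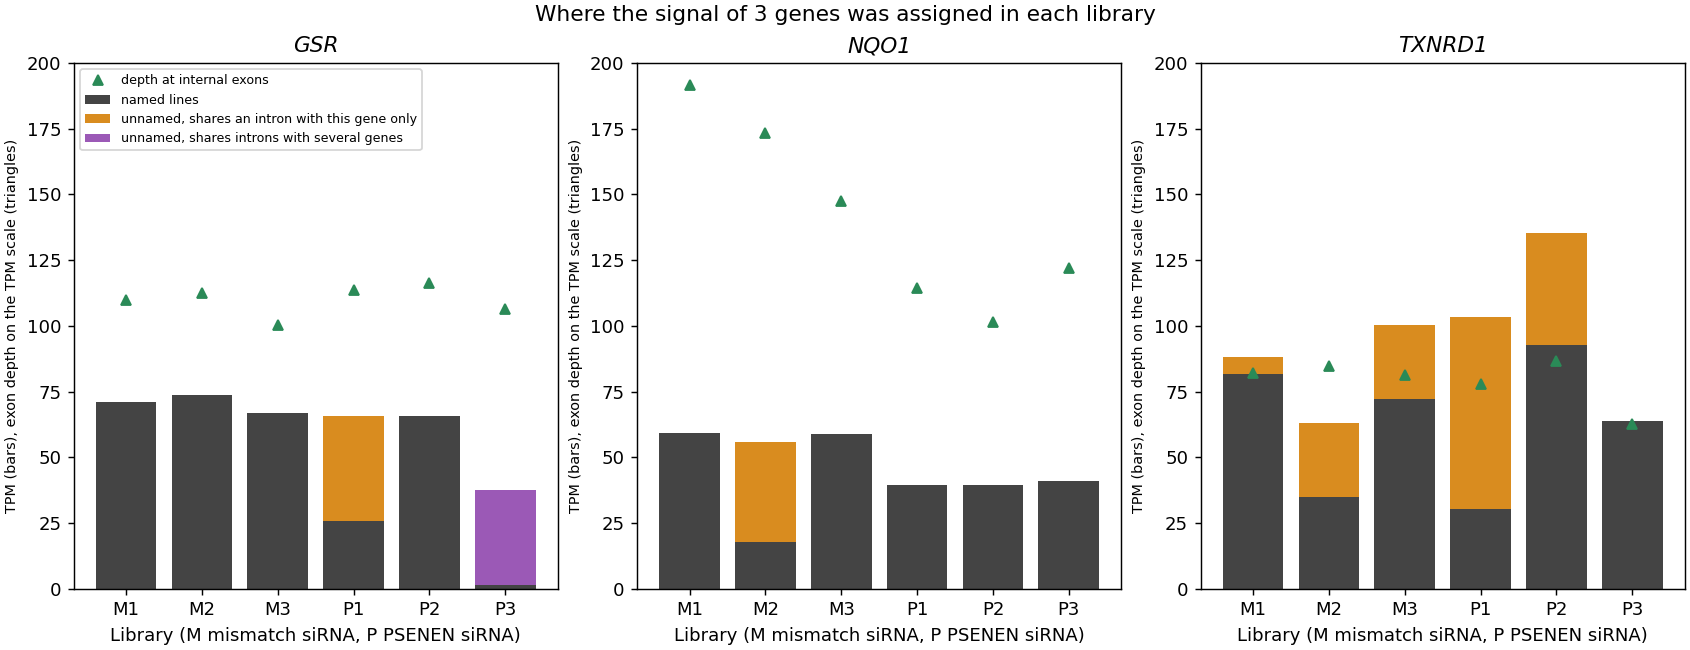
TPM of GSR, NQO1 and TXNRD1 in each library (bars; M mismatch siRNA, P PSENEN siRNA, with the library number), split into named lines, unnamed transcripts that share an intron with that gene only, and unnamed transcripts that join introns of several genes, with median exon depth on the TPM scale as triangles. Named bars drop in single libraries (GSR to 1.36 TPM in P3, NQO1 to 17.8 TPM in M2), where the triangles do not.

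NQO1 (ENSG00000181019, 16:69706996-69726951, minus strand), the quinone reductase that is a standard readout of NRF2, gave different pictures by named lines and by exons. Named TPM were 39.4, 39.3 and 41.1 with the PSENEN siRNA and 59.1, 17.8 and 58.9 with the mismatch siRNA. Mismatch siRNA library 2 alone was below the PSENEN siRNA libraries, and the log2 difference was 0.01 (−1.11 to 1.12, adjusted p = 0.996). That library held a further 38.1 TPM, 68.2% of the gene's sum, on unnamed transcripts that share an intron with NQO1. With them the mismatch siRNA libraries were at 59.1, 55.8 and 58.9 TPM, all above the PSENEN siRNA libraries, and the log2 difference was −0.52 (−0.74 to −0.31, limma adjusted p = 0.067).

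By exon depth NQO1 was at 115, 102 and 122 in PSENEN siRNA libraries and at 192, 173 and 148 in mismatch siRNA libraries. The groups did not overlap, with means of 113 ± 10.4 and 171 ± 22.1 (SD, n = 3), a ratio of 0.660, and 5 of 6 exons were lower in every PSENEN siRNA library. The log2 difference of −0.59 (−0.90 to −0.29) missed the threshold at an adjusted p of 0.080. With mismatch siRNA library 2 left out, the named difference was −0.55, which also did not pass.

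HMOX1 (ENSG00000100292, 22:35380361-35394214, plus strand), the stress-inducible haem oxygenase, was the least abundant of the 10, at 2.48, 2.86 and 2.30 TPM with the PSENEN siRNA and 3.92, 2.62 and 3.62 TPM with the mismatch siRNA. The groups overlapped, since mismatch siRNA library 2 lay between PSENEN siRNA libraries. The log2 difference was −0.30 on named TPM (−0.75 to 0.15, adjusted p = 0.541) and −0.49 by exon depth (−1.13 to 0.16, adjusted p = 0.400).

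NFE2L2 (ENSG00000116044, 2:177227595-177392697, minus strand), which encodes NRF2 itself, was at 54.9, 57.3 and 55.0 TPM with the PSENEN siRNA and 68.6, 60.4 and 57.8 TPM with the mismatch siRNA. The groups did not overlap but lay close, with a log2 difference of −0.15 (−0.40 to 0.09, adjusted p = 0.560). By exon depth they overlapped, at 81.5, 89.6 and 82.5 against 99.1, 91.5 and 82.4 (log2 difference −0.10, −0.36 to 0.15, adjusted p = 0.660). Its main transcript, ENST00000397062, was at 43.1 to 48.5 TPM and 45.6 to 59.9 TPM in the same order of groups. RNA levels do not report NRF2 protein, which is set mainly by its degradation.

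KEAP1 (ENSG00000079999, 19:10486120-10503741, minus strand), the adaptor through which NRF2 is degraded, was at 33.7, 26.8 and 39.7 TPM with the PSENEN siRNA and 41.8, 36.7 and 43.5 TPM with the mismatch siRNA. The groups overlapped, and the log2 difference was −0.29 (−0.69 to 0.11, adjusted p = 0.504). Exon depth was 49.4, 47.4 and 45.6 against 48.9, 47.1 and 43.0, with a log2 difference of 0.04 (−0.21 to 0.28, adjusted p = 0.891).

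The TPM of 2 KEAP1 transcripts stood in opposite order between the groups. ENST00000393623 was at 5.73, 4.09 and 11.4 TPM with the PSENEN siRNA and 32.4, 22.0 and 27.6 TPM with the mismatch siRNA, while ENST00000171111 was at 27.7, 21.2 and 20.5 TPM against 6.34, 12.5 and 5.27 TPM. Neither pair of groups overlapped. These transcripts differ in their first exon (19:10502697-10502896 and 19:10503241-10503741), in the 5′ UTR. The depth of the first exon, on the TPM scale, on the lines of ENST00000393623 was 3.30, 3.12 and 0.979 against 0.194, 0.850 and 0.726, the opposite order to its TPM, and on those of ENST00000171111 it was 0.781, 0.681 and 0.609 against 0.990, 1.11 and 0.868. The exon that tells the transcripts apart was thus covered at a small part of the gene's depth, and the split is given with no test.

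**Figure D4:**
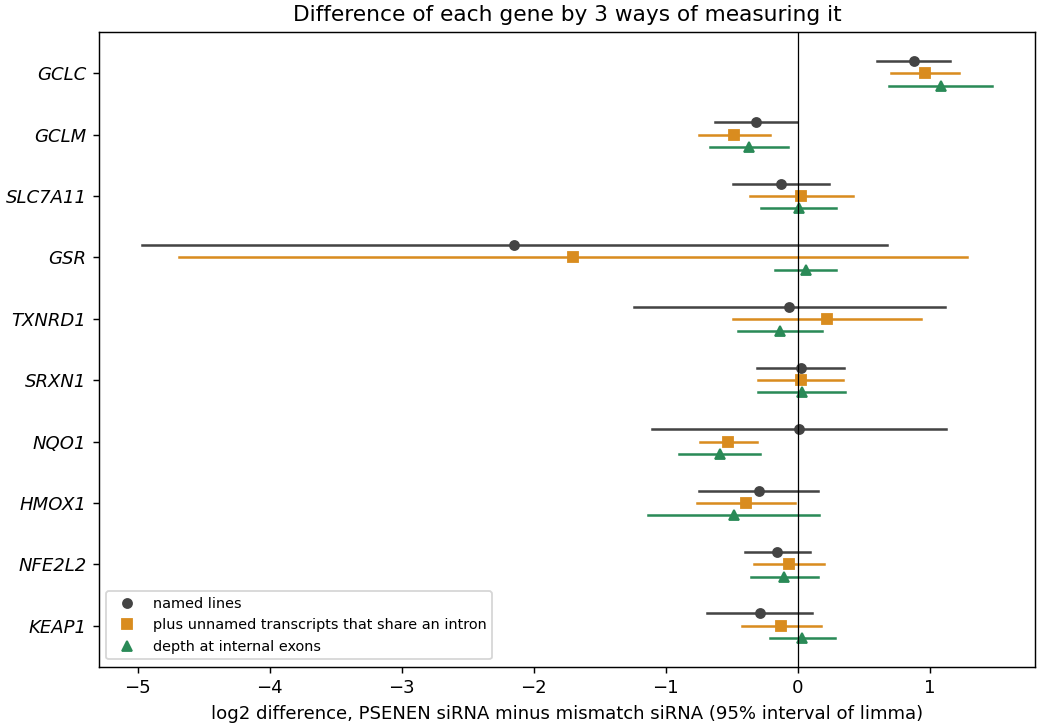
log2 difference of each of the 10 genes, PSENEN siRNA minus mismatch siRNA (x axis), by named lines, by named lines plus unnamed transcripts that share an intron, and by depth at internal exons, with points for limma's estimate and bars for its 95% interval. GCLC lies above 0 by all 3 measures, GCLM lies below 0 by all 3, and GSR, NQO1 and TXNRD1 have wide bars by named lines that narrow by exon depth.

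Within the mismatch siRNA libraries the order by mean exon depth on the TPM scale was NQO1 at 171, GSR at 108, NFE2L2 at 91.0, TXNRD1 at 82.7, GCLM at 65.6, GCLC at 62.3, KEAP1 at 46.3, SRXN1 at 32.7, SLC7A11 at 18.2 and HMOX1 at 4.38. The neighbours NFE2L2 and TXNRD1, and GCLM and GCLC, overlapped between libraries. In the PSENEN siRNA libraries GCLC stood at the top at 132, overlapping NQO1 at 113, which overlapped GSR at 112, and NFE2L2 followed at 84.5. Over the 10 internal exons covered in every library, GCLC was at 68.3 in the mismatch siRNA libraries, above GCLM at 65.6. The order of those means thus depends on the exons with gaps, while the libraries of GCLC and GCLM overlapped either way. It also depends on the measure. By mean named TPM in the mismatch siRNA libraries GCLC at 45.3 stood above GCLM at 20.8, and SRXN1 at 47.7 above KEAP1 at 40.6. The exon depth of SRXN1 rests on all its exons, that of the other genes on internal exons.

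The genes whose named TPM ran most like that of GCLC over the 6 libraries, among 9287 genes with a mean of at least 5 TPM, were HTR7 (Pearson r = 0.998), VDAC2 (0.995), TERF2IP (0.993), the processed pseudogene EEF1A1P13 (0.992) and PEX6 (0.991). These values describe 6 libraries that fall in 2 groups. VDAC2, an outer mitochondrial membrane channel, was at 103, 117 and 132 TPM with the PSENEN siRNA and 61.6, 67.6 and 56.7 TPM with the mismatch siRNA. HTR7, a serotonin receptor, was much lower, at 6.94, 7.77 and 7.58 against 5.06, 5.31 and 4.77 TPM.

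A further 105 genes of the pathway were listed by function, of which 96 could be tested on named TPM. None of the 96 was called in either direction by limma, against 0.422% of all genes. At an unadjusted p under 0.05, 4 passed on the higher and 10 on the lower side (4.17% and 10.4%, against 4.55% and 8.61% of all genes). Groups did not overlap for 8 on the higher and 17 on the lower side, against 8.17% and 13.8% of all genes. Their median log2 difference was −0.08. By exon depth 95 were tested, 1 was called higher and 0 lower, and groups did not overlap for 9 on the higher and 23 on the lower side, against 6.89% and 18.7% of all genes, with a median of −0.14. At an unadjusted p under 0.05, 10 passed on the higher and 18 on the lower side (10.5% and 18.9%, against 4.36% and 13.4% of all genes).

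That 1 gene was GPX2, a selenium-dependent glutathione peroxidase of epithelia, which rose by exon depth. Its exon depth was 142, 137 and 135 in PSENEN siRNA libraries and 75.9, 89.1 and 93.4 in mismatch siRNA libraries, with no overlap. The log2 difference was 0.68 (limma adjusted p = 0.039). Its named TPM were 155, 153 and 141 against 81.9, 95.5 and 102, with the same log2 difference of 0.68 but an adjusted p of 0.082.

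Beside the members, 9 genes of glutathione synthesis and cystine uptake were tested. On named TPM groups did not overlap for 1 higher and 2 lower, against 8.17% and 13.8% of all genes. By exon depth the counts were 0 and 2, against 6.89% and 18.7% of all genes. The median log2 difference of the 9 was −0.11 on named TPM and −0.52 by exon depth. CHAC1, which breaks glutathione down in the cytosol, was at 0.228, 0.536 and 2.23 TPM with the PSENEN siRNA and 5.24, 3.04 and 2.46 TPM with the mismatch siRNA. All PSENEN siRNA libraries were lower, and the log2 difference of −1.28 did not pass (adjusted p = 0.295). GGCT, the most abundant of these 9 genes on named TPM, had a log2 difference of 0.17 (adjusted p = 0.489).

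Of the 23 genes of glutathione use and reduction tested on named TPM, groups did not overlap for 2 higher and 5 lower. Of the 22 tested by exon depth the counts were 2 and 4. Over all genes the shares were 8.17% and 13.8% on named TPM, and 6.89% and 18.7% by exon depth. GSTP1, the main glutathione transferase of many epithelia, was at 443, 547 and 562 TPM with the PSENEN siRNA and 642, 704 and 746 TPM with the mismatch siRNA. Its groups did not overlap, and the log2 difference of −0.44 did not pass (adjusted p = 0.225). The other genes named from this list had log2 differences of −0.61 (GSTZ1), −0.54 (MGST3) and −0.34 (ABCC3), none of which passed.

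Of the 13 tested genes of the thioredoxin and peroxiredoxin system, groups did not overlap for 2 higher and 3 lower on named TPM. The shares over all genes were 8.17% and 13.8%. By exon depth the counts were 4 and 4, against 6.89% and 18.7% of all genes. TXNIP, which binds and inhibits thioredoxin, was at 31.6, 30.1 and 26.3 TPM with the PSENEN siRNA and 4.13, 7.30 and 14.2 TPM with the mismatch siRNA. Every PSENEN siRNA library was higher, but the mismatch siRNA libraries ranged widely, and the log2 difference of 1.80 did not pass (adjusted p = 0.134, and 0.082 by exon depth). SELENOW, a small selenoprotein, was at 70.2, 63.3 and 64.6 TPM against 89.7, 91.8 and 84.0 TPM, also without overlap (log2 difference −0.42, adjusted p = 0.140). PRDX1, an abundant peroxiredoxin, had a log2 difference of −0.42 on named TPM (adjusted p = 0.364) and of −0.25 by exon depth, where the groups overlapped.

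Of the 16 tested genes of quinone, haem and iron detoxification, groups did not overlap for 2 higher and 3 lower on named TPM. The shares over all genes were 8.17% and 13.8%. By exon depth the counts were 1 and 3, against 6.89% and 18.7% of all genes. FTL, the ferritin light chain, was at 683, 654 and 679 TPM with the PSENEN siRNA and 532, 489 and 481 TPM with the mismatch siRNA. The groups did not overlap, and the log2 difference of 0.42 did not pass (adjusted p = 0.103). FTH1, the heavy chain, was at 2806 to 3740 TPM in 5 libraries and at 12.5 TPM in mismatch siRNA library 1, where its exon depth was 5877, so that the named difference of 2.66 (adjusted p = 0.637) became 0.20 by exon depth. Both ferritin chains have many processed pseudogenes, which could share their reads.

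The 12 tested genes of NADPH supply, which feed GSR, TXNRD1 and NQO1 with reducing power, had a median log2 difference of 0.01, with TKT, a transketolase of the pentose phosphate pathway, at 0.02 (adjusted p = 0.984). The 5 tested genes of superoxide and hydrogen peroxide removal had a median of −0.24 on named TPM and 0.04 by exon depth, and SOD1 stood at 0.01 (adjusted p = 0.959). Neither list held a gene that passed. Groups did not overlap for 1 higher and 1 lower gene of NADPH supply on named TPM, and for 0 and 0 by exon depth. For the 5 genes of superoxide and hydrogen peroxide removal the counts were 0 and 0 on named TPM, and 1 and 2 by exon depth. Over all genes the shares were 8.17% and 13.8% on named TPM, and 6.89% and 18.7% by exon depth.

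Of the 18 tested genes that control NRF2, groups did not overlap for 0 on the higher and 3 on the lower side of named TPM, against 8.17% and 13.8% of all genes. By exon depth the counts were 1 higher and 8 lower, against 6.89% and 18.7% of all genes, with a median log2 difference of −0.22 and none called lower (6 lower at an unadjusted p under 0.05). SQSTM1, which can sequester KEAP1 and is itself a target of NRF2, was at 542, 223 and 204 TPM with the PSENEN siRNA and 350, 166 and 99.4 TPM with the mismatch siRNA, with overlap (log2 difference 0.70, adjusted p = 0.640). By exon depth it was at 919, 851 and 983 against 629, 429 and 416. The groups did not overlap by that measure, and the log2 difference of 0.92 stood just outside the threshold (limma adjusted p = 0.055).

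**Figure D5:**
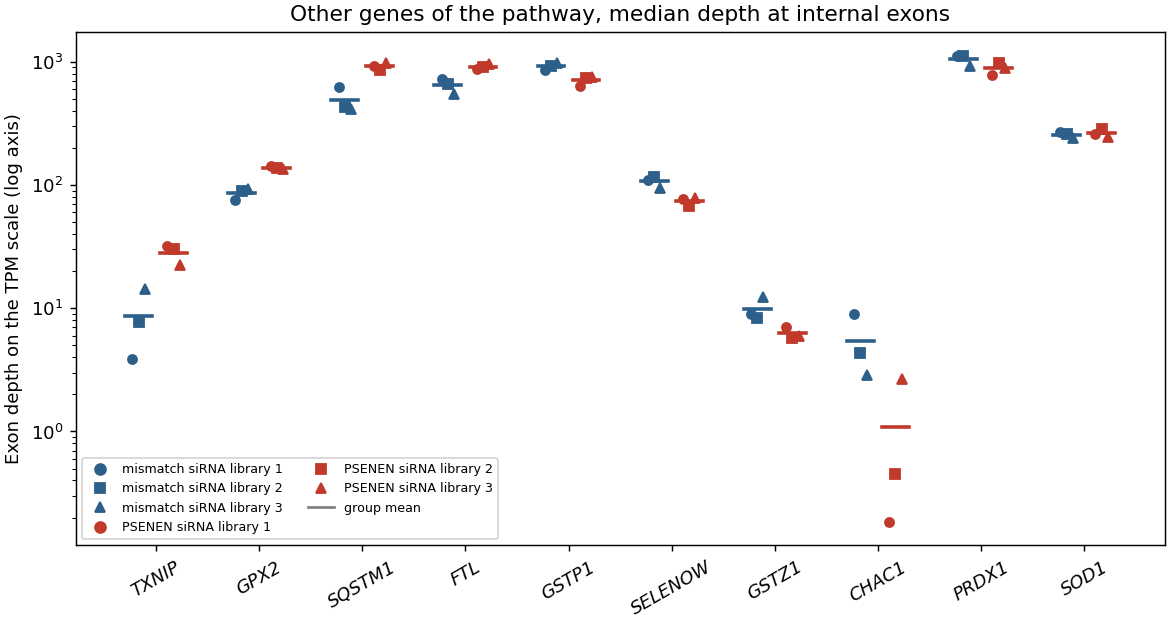
Median exon depth on the TPM scale (log y axis) of 10 of the other pathway genes in each library, blue for mismatch siRNA and red for PSENEN siRNA, with a bar at the group mean. GPX2 passed the test, TXNIP, SQSTM1 and FTL have all PSENEN siRNA libraries above all mismatch siRNA libraries without passing, and GSTP1, SELENOW, GSTZ1 and CHAC1 have them all below.

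The 7 letters TGGTTCT, which the PSENEN coding transcripts hold on their sense strand before the 3′ UTR in 3 of 3 cases, were looked for in the 3′ UTRs of the 10 genes. They were present in 1 of the 10, SRXN1, against 18.1% of 10674 tested genes. GCLC and GCLM do not hold them.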

How the data were processed

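RNA sequencing of 6 HaCaT libraries was used, 3 per group by the treatment label. The files the authors deposited are 1 StringTie assembly per library, per the file headers, with TPM, FPKM and coverage (per-base signal) for each transcript and no counts, so depth was estimated and no counting intervals were made. For the aligner, the StringTie version, strandedness and annotation, the entry is: not given in the sources used here. Mouse builds (mm8, mm9) and Bowtie 0.12.2 stand in the submitters' processing notes, though the files are human. Of 92476 reference transcripts named, 90704 (98.1%) had their position in GENCODE 29 on GRCh38, which was used.

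TPM were summed over lines that carry a gene's name, as deposited. The test was limma (version 3.58.1, R 4.3.3) with a trend on intensity and Benjamini-Hochberg adjustment. It used log2(TPM + 1), which understates differences of low genes, and kept 15415 genes that reached 1 TPM in 3 or more libraries. Genes were called at an adjusted p under 0.05, two-sided, with 4 residual degrees of freedom. p-values measure the spread between libraries, which may be technical. Exon depth is coverage times the TPM per coverage of the library, added after the data were seen and fitted in the same way. The limma step on named TPM was tested on simulated libraries with changes set in 200 genes. It recovered 52% of 2-fold and 82% of 4-fold changes, and 10 of its 144 calls were of unchanged genes. A 2-fold change could thus often be missed. The exon depth measure was not simulated. Python 3.11.15, NumPy 2.4.6, pandas 2.3.3 and matplotlib 3.10.9 did the parsing and figures.

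The members and lists were chosen with earlier results of these data known. Other pathway genes were named if called, if the most abundant of their list, or if among the 10 smallest unadjusted p, and 5 genes were named for likeness to GCLC. Some listed genes are not reported here. Symbols follow current names, with SELENOW as SEPW1 in the files. Alternatives were pseudocounts, filters, FPKM, rescaling to a common total, median-of-ratios and quantile scaling, unnamed transcripts that share an intron with 1 gene, no trend, array weights, the replicate number as a block and each library left out.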

Additional observations from a re-analysis of the deposited data

How the results depend on the processing

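The named TPM of all genes gave 65 calls, 21 higher and 44 lower. A pseudocount of 0.1 gave 28 (9 higher, 19 lower), a minimum of 5 TPM gave 42 (9 higher), quantile normalization gave 28 lower, and exon depth gave 150 (36 higher, 114 lower). With 1 library left out the calls were 6 to 16 (2 to 9 higher, 2 to 14 lower). Deviations of same-numbered libraries from their group means correlated at −0.051 to −0.00082 on named TPM and −0.024 to 0.019 by exon depth. Those of differently numbered libraries correlated at −0.028 to 0.036 and −0.043 to 0.043. By this measure same-numbered libraries were no more alike than others, which does not settle whether they were handled together. With the replicate block limma called 1 gene, 0 higher and 1 lower (1615 at an unadjusted p under 0.05). GCLC was then at a limma adjusted p of 0.343 (0.088 by exon depth). GCLC kept its direction under all 19 alternatives set against named TPM and its call under 6 of them: FPKM (0.040), median-of-ratios (0.045), quantile normalization (0.041), array weights (0.0498), unnamed transcripts that share an intron (0.032) and exon depth (0.038). A further 7 alternatives were run within exon depth, and GCLC kept its direction but lost its call under all 7. GCLM, HMOX1 and NFE2L2 kept their direction under every alternative run for them. Against named TPM, signs turned for NQO1 with a pseudocount of 5 (−0.0125), unnamed transcripts (−0.52), exon depth (−0.59) and single libraries left out (−0.55 to 0.29), and for TXNRD1 with FPKM (0.00935), unnamed transcripts (0.22), array weights (0.0823) and single libraries left out (−0.44 to 0.37). They also turned for SLC7A11 with unnamed transcripts (0.0271) and exon depth (0.00619), for GSR (0.0591) and KEAP1 (0.0354) with exon depth, and for SRXN1 with single libraries left out (−0.0672 to 0.138). Within exon depth, leaving out 1 library gave −0.0155 to 0.0744 for KEAP1, −0.0352 to 0.0537 for SLC7A11 and −0.0712 to 0.140 for SRXN1. In GSR and NQO1 the libraries with a low named sum held unnamed transcripts that share its introns. So did PSENEN siRNA library 1 (30.5 named and 72.8 unnamed TPM) and mismatch siRNA library 2 (34.9 and 28.3) for TXNRD1. For KEAP1, PSENEN siRNA library 2 held 26.8 and 9.38 TPM. Unnamed transcripts also stood beside a high named sum, as in PSENEN siRNA library 2 for TXNRD1 (92.6 and 42.6). The cause of the turns was not tested. The GCLC to GCLM ratio stayed 2.15 to 2.51-fold apart with 1 library left out. No counts are held, so depth sets no interval here.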
